A study of Mus musculus with 10 samples.

Results

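The cytosolic ribosome is built from ribosomal RNA and a fixed set of ribosomal proteins, which are encoded by the Rpl and Rplp genes for the large subunit and by the Rps genes and Rpsa for the small subunit. The large subunit joins amino acids, and the small subunit reads the mRNA. Most of these genes belong to the TOP mRNAs, whose transcripts begin with a tract of pyrimidines through which the kinase complex mTORC1 and the protein LARP1 control their translation. Such a name was carried by 85 of the 15914 genes listed in the deposited data, chosen by symbol alone: 53 of the large and 32 of the small subunit. The fusion gene Fau, the scaffold gene Rack1 and names that mark pseudogenes were left out by this choice. Of the 85, 8 carry an l after the number in the symbol, which marks a paralog (Rpl3l, Rpl6l, Rpl7l1, Rpl22l1, Rpl32l, Rpl36al, Rpl39l and Rps27l).

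Tissue labelled prefrontal cortex, from C57BL/6J mice of genotype WT (wild type), gave the 10 libraries. In the hypoxia group (5 libraries) the mice were exposed to hypobaric hypoxia, the low oxygen of reduced air pressure. In the hypoxia + PBM group (5 libraries) hypobaric hypoxia was followed by photobiomodulation, a treatment with light (laser, by the column names). All mice had thus been exposed to hypoxia, and the comparison asked what differed with photobiomodulation.

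The labels give no age, sex or dissection, and do not say that each library is 1 animal, so that p-values measure only the spread between these libraries. Between 29283937 and 35957148 reads on the listed genes lay behind each library. The 6 neuronal markers checked, such as Snap25 and Slc17a7, summed to 2016 to 2229 FPKM in hypoxia and 2055 to 2250 in hypoxia + PBM, with 0 called. Levels are FPKM, fragments scaled by gene length and by the reads of the library. A comparison between genes therefore rests on the gene lengths used. Bulk tissue cannot separate fewer cells of a type from less RNA per cell. Many ribosomal protein genes have near-identical processed copies in the genome, and the sources used here do not say how reads that match several places were counted, so each level is uncertain to that extent.

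Ribosomal protein mRNA was abundant in both groups. Summed over the 85 genes, hypoxia replicates 1 to 5 held 22084, 22993, 22349, 19859 and 20962 FPKM. Hypoxia + PBM replicates 1 to 5 held 19753, 20777, 19000, 20073 and 21287 FPKM. Hypoxia replicates 1, 2 and 3 lay above every hypoxia + PBM library, while hypoxia replicates 4 and 5 lay within their range. The means were 21649 ± 1241 and 20178 ± 890 FPKM (SD, n = 5 each), so the mean of the sum differed by -6.80%, a difference little larger than the spread within a group. As a share of reads the genes took 1.79% ± 0.0975 and 1.68% ± 0.0681 (SD, n = 5 each).

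The mean sum was lower with PBM in both subunits, with differences of -6.66% in the large and -6.99% in the small, and whether these differ was not tested. The large-subunit genes summed to 12561 ± 681 and 11725 ± 507 FPKM, and the small-subunit genes to 9088 ± 561 and 8453 ± 383 FPKM (SD, n = 5 each). The ratio of the large to the small sum was nearly constant, at 1.38 ± 0.0130 under hypoxia alone and 1.39 ± 0.00327 with PBM (SD, n = 5 each), with 1.37 the lowest and 1.40 the highest library. The sums of both subunits varied by 4.32% to 6.17% of their mean between libraries of a group, the ratio by 0.236% to 0.942%.

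**Figure D1:**
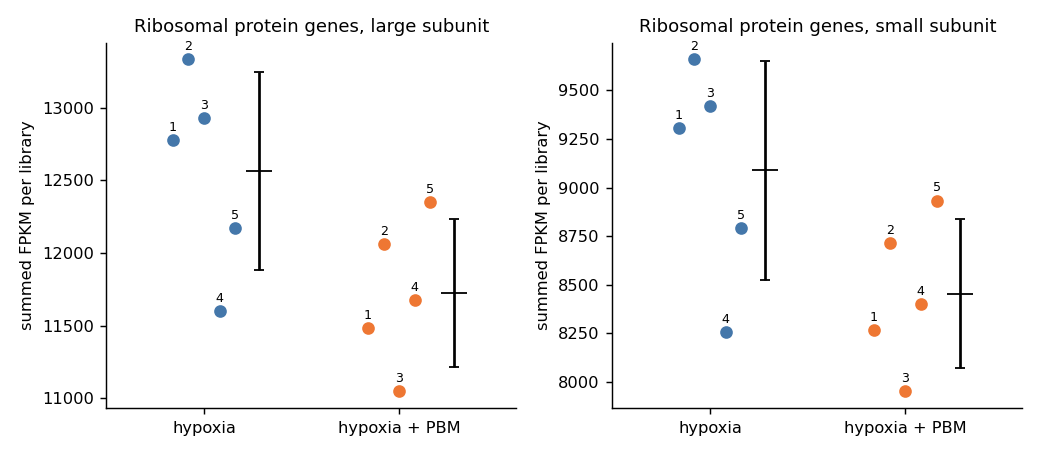
Summed FPKM of the 53 large-subunit genes (left) and the 32 small-subunit genes (right) in each library, with points numbered by replicate and bars for the mean ± SD of 5 libraries. The axes do not start at 0. Hypoxia replicates 1, 2 and 3 lie above all hypoxia + PBM libraries, and replicates 4 and 5 lie among them, in both subunits.

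Levels differed widely between members. The stalk protein gene Rplp1, part of the complex that recruits translation factors, was highest, at 984 ± 59.0 FPKM under hypoxia alone and 892 ± 34.0 FPKM with PBM (SD, n = 5 each). It was followed by Rps29, a zinc-binding small-subunit protein, at 862 ± 84.7 and 775 ± 55.4 FPKM, and by Rpl41, the smallest ribosomal protein, at 782 ± 55.3 and 770 ± 60.8 FPKM. Next came Rps15 (581 ± 33.6 and 550 ± 16.2 FPKM) and Rps14 (568 ± 49.0 and 543 ± 39.7 FPKM; SD, n = 5 each). Neighbours in this order overlapped in their libraries, except that every library of Rpl41 lay above every library of Rps15. These 5 genes made up 17.5% of the summed FPKM.

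In all, 70 of the 85 genes had a mean of at least 100 FPKM, 11 lay between 10 and 100, and 4 lay below 10. Among the 11 were Rps15a (30.3 ± 1.40 and 28.9 ± 0.701 FPKM) and Rps20 (40.0 ± 2.21 and 36.9 ± 1.71 FPKM; SD, n = 5 each), a pair of proteins present once in each ribosome. The gene length by which the authors divided was 6.12 times the members' median for Rps15a and 4.34 times for Rps20, and neither gene was short of reads. Rps15a had 4620 to 5758 reads per library and Rps29, at 0.384 times the median length, had 7726 to 10990.

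Of the 85 genes, 84 passed the minimum of 0.1 FPKM in at least 5 libraries and were tested. In a limma-trend fit over all 14406 tested genes, 1 of the 84 was called lower in hypoxia + PBM at an adjusted p under 0.05, where 1.70% of all tested genes were called lower. None was called higher, where 1.15% of all tested genes were (2.85% in either direction). At an unadjusted p under 0.05, 35 of the 84 were lower and 0 higher, where 10.1% and 9.46% of all tested genes were. The deposited comparison of the authors called more: of the 85 genes in the authors' deposited table, 15 had a q-value under 0.05 with a lower level (10 large-subunit and 5 small-subunit genes), where 3.39% of all listed genes did, and 0 had one with a higher level, where 3.02% did.

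The small differences ran one way. Of the 84 tested genes, 82 had a negative log2 change, as had 7199 of all 14406 tested genes, and the 32 small-subunit genes were all among them. The median log2 change was -0.096 over the 84, -0.093 over the 52 large-subunit genes tested and -0.098 over the 32 small-subunit genes, against 0.00011 over all tested genes. A log2 change of -0.1 or less was found for 37 of the 84, and for 13.6% of all tested genes. Because the members vary together between libraries, as described further on, these counts do not stand for 84 separate observations.

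**Figure D2:**
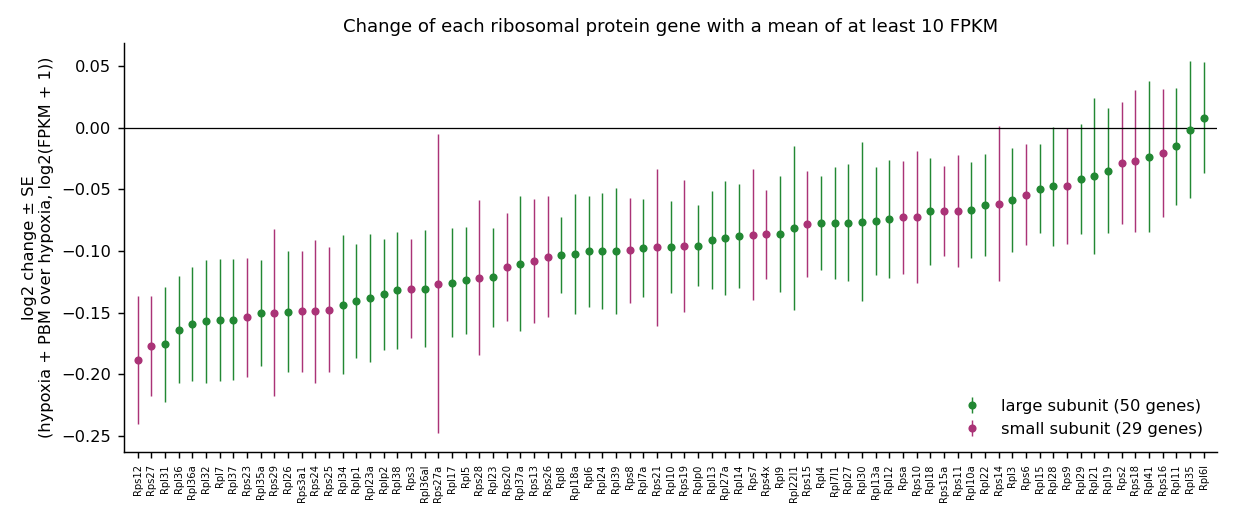
Log2 change of 79 of the 81 genes with a mean of at least 10 FPKM, with PBM relative to hypoxia alone, computed on log2(FPKM + 1), with bars for the standard error of the limma-trend fit. All but Rpl6l lie below 0, Rps12 lowest, and most lie between -0.05 and -0.15.

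Rps27, which encodes the zinc-finger protein metallopanstimulin of the small subunit, was the called gene. In hypoxia replicates 1 to 5 its level was 417, 442, 442, 418 and 414 FPKM, and in hypoxia + PBM replicates 1 to 5 it was 367, 374, 353, 398 and 397 FPKM. The groups did not overlap, as was the case for 2 of the 84 members and for 2.87% of all tested genes in the lower direction. In the higher direction it was the case for 0 of the 84 and for 2.67% of all tested genes. The means were 427 ± 14.3 and 378 ± 19.3 FPKM (SD, n = 5 each), a log2 change of -0.18 ± 0.040 (SE; limma-trend adjusted p = 0.0341). The call was close to the threshold: when 1 library at a time was left out it held in 3 of 10 fits, those without hypoxia replicate 4 or hypoxia + PBM replicate 4 or 5, with limma adjusted p from 0.0307 to 0.0896. With the mean of striatal markers as a covariate, described further on, the log2 change was -0.080 (limma adjusted p = 0.933). In the fits that left out 1 library, the log2 change lay between -0.20 and -0.15.

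The 150 bases before the start of Rps27 are shown because it was the called member (RefSeq, GRCm38.p6, minus strand, chr3:90213649-90213798, from 5′ to 3′). The capitals mark AAGATGG, the core of the sequence that the zinc-finger factor YY1 binds, which begins 74 bases before the start. These letters are not particular to Rps27. On either strand they were found in 10 of the 64 members with a promoter window (15.6%), as described further on, and in 7.91% of the other tested genes.
Rps27: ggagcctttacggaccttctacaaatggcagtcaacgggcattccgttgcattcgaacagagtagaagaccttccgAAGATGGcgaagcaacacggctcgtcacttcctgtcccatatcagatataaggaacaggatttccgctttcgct

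Rpl8, a large-subunit protein near the catalytic centre, was the other member without overlap. It held 375, 383, 378, 363 and 366 FPKM in hypoxia replicates 1 to 5 and 343, 356, 335, 348 and 354 in hypoxia + PBM. Its log2 change was only -0.10 ± 0.031 (SE) and did not pass (limma-trend adjusted p = 0.0918). Its spread was small, with means of 373 ± 8.39 and 347 ± 8.81 FPKM (SD, n = 5 each). In the authors' deposited table its q-value was 0.0213.

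Among the other small-subunit genes, Rps12 had the most negative change, -0.19 ± 0.052 (log2, SE; limma-trend adjusted p = 0.0717). Its level was 79.0, 83.9, 86.1, 72.7 and 79.1 FPKM in hypoxia replicates 1 to 5 and 69.6, 71.2, 65.1, 67.7 and 77.6 in hypoxia + PBM. Only hypoxia replicate 4 and hypoxia + PBM replicate 5 crossed between the groups. Rps3, which lines the mRNA entry channel, was at 226 ± 10.3 and 206 ± 8.86 FPKM (SD, n = 5 each; limma-trend adjusted p = 0.0991). Rps23, a decoding-centre protein, was at 432 ± 28.1 and 388 ± 17.5 FPKM (limma-trend adjusted p = 0.106). Rps3a1 (448 ± 28.9 and 404 ± 20.4 FPKM), Rps25 (353 ± 22.9 and 318 ± 18.5 FPKM; SD, n = 5 each) and Rps20 were also among the 8 small-subunit genes with the smallest p, and none of these 3 passed (limma-trend adjusted p from 0.121 to 0.174). Rpsa, also known as the laminin receptor, had a log2 change of -0.073 ± 0.046 (SE; limma-trend adjusted p = 0.418).

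In the large subunit Rpl31, which sits near the exit of the peptide tunnel, had the most negative change, -0.18 ± 0.046 (log2, SE; limma-trend adjusted p = 0.0618). Its level was 213, 210, 208, 183 and 206 FPKM in hypoxia replicates 1 to 5, and 179, 185, 166, 183 and 189 FPKM in hypoxia + PBM replicates 1 to 5. Hypoxia replicate 4 alone lay among the hypoxia + PBM libraries. Rpl36 was at 135 ± 7.997 and 120 ± 4.97 FPKM (SD, n = 5 each; limma-trend adjusted p = 0.0623). Rpl35a, one of the genes mutated in Diamond-Blackfan anaemia in humans, was at 317 ± 15.4 and 285 ± 13.8 FPKM (limma-trend adjusted p = 0.0799). Rpl36a, Rpl37, Rpl7 and Rpl32 each had a log2 change of -0.16, with limma-trend adjusted p from 0.0852 to 0.111.

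The stalk genes differed by similar amounts. Rplp1 and Rplp2, which form its flexible dimers, had log2 changes of -0.14 ± 0.046 and -0.14 ± 0.045 (SE; limma-trend adjusted p = 0.119 and 0.125). Rplp0, their anchor, had one of -0.096 ± 0.033 (SE; limma-trend adjusted p = 0.135).

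At the other end several abundant genes hardly differed in their means. Rpl35, chosen for mention after its values were seen, was at 302 ± 20.8 and 302 ± 21.0 FPKM (SD, n = 5 each), a log2 change of -0.0015 ± 0.055 (SE). Rpl41 had a log2 change of -0.024 ± 0.061 (SE), and Rps16 and Rpl11, also chosen after their values were seen, had changes of -0.021 ± 0.052 and -0.015 ± 0.047 (SE). With these standard errors a difference as large as the median of the members could not be told from none. That the change of Rps27 differs from that of Rpl35 was not tested.

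After each gene was set against its own group mean, the members moved together from library to library. Of the 81 members with at least 10 FPKM, 80 lay above their group mean in hypoxia replicate 2, 74 in replicate 3 and 70 in replicate 1, but only 10 in replicate 5 and 1 in replicate 4. In hypoxia + PBM, 77 lay above it in replicate 5 and 63 in replicate 2, against 35 in replicate 4, 9 in replicate 1 and 1 in replicate 3. The median deviation reached -0.12 log2 units in hypoxia replicate 4 and 0.080 in hypoxia replicate 2 and hypoxia + PBM replicate 5. In both groups the span between libraries was wider than the median change between the groups.

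**Figure D3:**
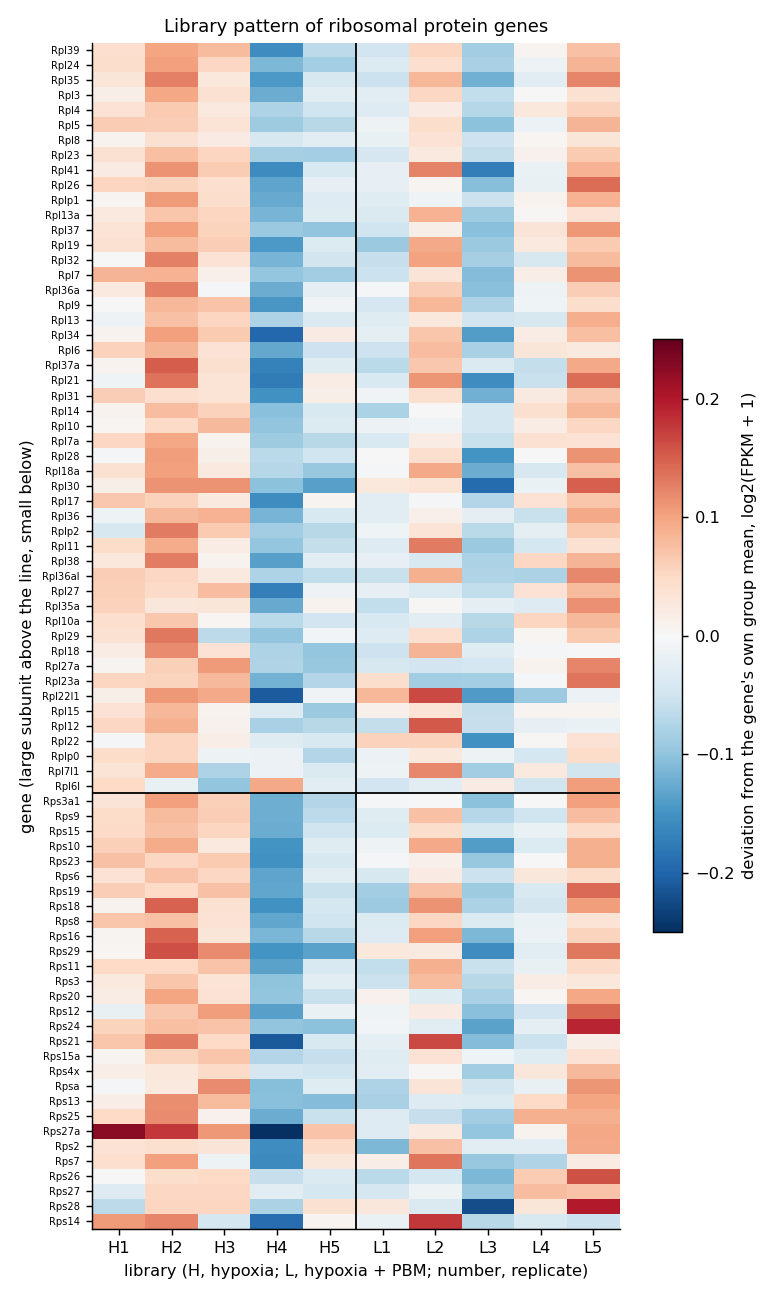
Deviation of 79 of the 81 members from the gene's own group mean in each of the 10 libraries, on the log2(FPKM + 1) scale, with colours limited at ±0.25. Genes are ordered within each subunit by how closely they follow the other members. Whole columns share a colour: hypoxia replicate 4 and hypoxia + PBM replicate 3 are blue in all but 1 gene each, and hypoxia replicate 2 is red in all but 1.

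The same coordination can be given as a correlation over the 10 libraries with the group means removed, as a description. The median correlation between a pair of members was 0.78. It was 0.79 within the large subunit, 0.77 within the small subunit and 0.77 between genes of different subunits. Over all 5120 genes of at least 10 FPKM it was 0.042. These values share the library totals by which FPKM is scaled. The members and all genes were not matched for level, and counting noise lowers a correlation more in genes with fewer reads.

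Most members followed the common pattern closely: 62 of 81 had a correlation of at least 0.8 with the median deviation of the other members. The closest were Rpl39 (0.98), Rpl24 (0.98) and Rpl35 (0.97), so that Rpl35 followed the other members between libraries while its group means were alike. The loosest among the genes without an l suffix were Rps14 (0.64), Rps28 (0.65), Rplp0 (0.65), Rpl22 (0.66) and Rps27 (0.67). Rpl24 and Rps28 were named after their values were seen.

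Rps27a, which encodes a fusion of ubiquitin and a small-subunit protein and was also singled out after its values were seen, was the most extreme case in 1 library. It held 255, 246, 235, 145 and 229 FPKM in hypoxia replicates 1 to 5 and 195, 203, 186, 201 and 213 in hypoxia + PBM. Hypoxia replicate 4 lay 0.58 log2 units under the group mean. With all libraries its log2 change was -0.13 ± 0.12 (SE; limma-trend adjusted p = 0.607). Without hypoxia replicate 4 it was -0.27 (limma-trend adjusted p = 0.00731), with no overlap between the libraries that remain.

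Among the fits that left out 1 library, the one without hypoxia replicate 4 called the most members. Without it, 12 members were called lower: Rps27, Rps27a, Rps12, Rps23 and Rps3 of the small subunit, and Rpl31, Rpl36, Rpl35a, Rpl36a, Rpl17, Rpl34 and Rplp1 of the large. The median log2 change of the members was then -0.12. Over all genes, that fit called 538 of 14350 in either direction, against 411 of 14406 with all libraries. Without hypoxia + PBM replicate 5, 4 members were called, where 398 of 14344 genes were called in either direction. Without hypoxia + PBM replicate 4 there was 1 member, where 303 of 14342 genes were called. None was called in the 7 remaining fits that left out 1 library. The smallest limma adjusted p among members in each of these 7 fits lay between 0.0592 and 0.0896. Nothing in the labels sets hypoxia replicate 4 apart, so the result from all 10 libraries stands as the main one.

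Other short genes deviated in the same libraries. By the gene length the authors used, 66 of the 84 tested members belonged to the shortest of 10 equal length classes of all tested genes. The 727 other genes of that class with at least 10 FPKM had a median deviation of -0.074 log2 units in hypoxia replicate 4 and of 0.082 in replicate 2, where the members had -0.12 and 0.080. In hypoxia + PBM replicates 3 and 5 these short genes had -0.088 and 0.057, where the members had -0.080 and 0.080. All 5039 genes of at least 10 FPKM that are not ribosomal protein genes, the 727 included, had medians that stayed between -0.022 and 0.021 in all libraries. Hypoxia + PBM replicate 4 was the library in which the short genes (0.026) and the members (-0.010) parted.

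The pairwise correlation was weaker among those short genes, with a median of 0.44, than the 0.78 among members, and it was 0.56 between a member and a short gene. These sets were not matched for level: 70 of the 81 members had a mean of at least 100 FPKM, whereas the short genes needed only 10. Counting noise lowers a correlation more in genes with fewer reads, and its part in this contrast was not tested. The median log2 change of the short genes between the groups was -0.044, with 73.5% negative, against -0.096 and 82 of 84 for the members. Across the 10 length classes the median log2 change of the other tested genes went from -0.030 in the shortest to 0.032 in the longest. When the trend on length was removed from each library, the median change of the members was -0.061, 74 of 84 were negative, and 13 members were called lower, at limma adjusted p as low as 0.0233 (Rpl31). That fit called 637 of all 14406 tested genes in either direction, against 411 without the removal. The 13 members and the 12 called without hypoxia replicate 4 shared 7 genes. The part of gene length or of RNA quality in the difference was otherwise not tested.

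**Figure D4:**
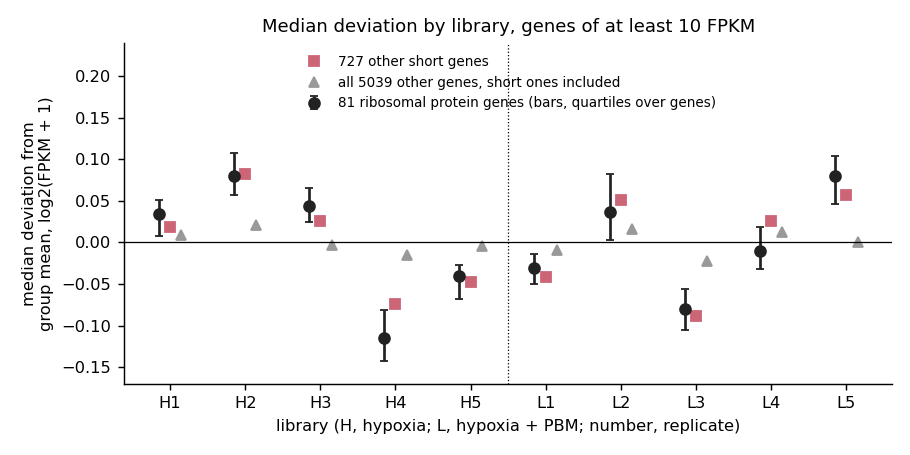
Median deviation from the group mean in each library for the 81 members (circles, with quartiles over genes), for 727 other short genes (squares) and for all 5039 genes of at least 10 FPKM outside the family, the short ones included (triangles), on the log2(FPKM + 1) scale. Members and short genes lie on the same side of 0 in every library but hypoxia + PBM replicate 4, and the triangles stay near 0.

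Markers of other tissue moved with the groups as well. All 14 tested markers of striatal medium spiny neurons were called lower. Their summed level ran from 374 to 682 FPKM in hypoxia and from 182 to 331 in hypoxia + PBM. Within the groups, most of these markers were lowest in hypoxia replicate 4 and hypoxia + PBM replicate 3, where the members were lowest too. Hypoxia replicate 5, where most members were below their group mean, was high in most of these markers. Whether the markers and the members vary together was not tested. With the mean of these markers as a covariate, the median log2 change of the members was 0.019, 32 of 84 were negative, and neither a member nor any other gene was called. The covariate separates the groups without overlap, so its part and that of the treatment cannot be told apart. Oligodendrocyte markers summed to 1135 to 1339 FPKM in hypoxia and 1091 to 1248 in hypoxia + PBM, with 0 of 6 called. All 6 had a negative log2 change, with a median of -0.10. Microglial markers summed to 252 to 299 and 232 to 282 FPKM, with 0 of 8 called, 7 of 8 negative and a median log2 change of -0.063. The 4 choroid plexus markers ranged from 87.3 to 634 FPKM in hypoxia and from 8.45 to 469 in hypoxia + PBM. All 4 were negative, with a median log2 change of -0.38 and 0 called. Of the 6 endothelial markers 3 were called higher, and the 6 summed to 36.8 to 45.2 and 46.5 to 55.2 FPKM. Of the 6 astrocyte markers 2 were called higher, with sums of 411 to 458 and 422 to 484 FPKM. Of the 3 markers of oligodendrocyte precursors 1 was called higher, with sums of 8.75 to 10.4 and 9.84 to 12.2 FPKM. Of the 5 deep-layer neuron markers 1 was called lower, and their sums, 29.6 to 34.6 and 26.9 to 28.9 FPKM, did not overlap. Markers of upper-layer neurons, pericytes and smooth muscle, meningeal fibroblasts and red blood cells had 0 calls. Their median log2 changes were 0.20, 0.12, 0.20 and 0.27, in that order. Of the 5 upper-layer markers 0 had a negative change. The part of these cell types in the ribosomal protein levels was not tested.

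Paralogs made up a varied share of the FPKM of their pairs, a measure that rests on the gene lengths used. Rpl22l1, which can take the place of Rpl22 in the ribosome, held 147 ± 12.6 and 139 ± 12.2 FPKM, against 49.4 ± 1.296 and 47.3 ± 2.84 FPKM for Rpl22 (SD, n = 5 each). Rpl22l1 thus made up 74.8% ± 1.37 of the pair's FPKM under hypoxia alone and 74.6% ± 1.01 with PBM (SD, n = 5 each). By reads Rpl22 was the higher, at 3213 to 4025 per library against 1957 to 2738 for Rpl22l1. The gene length was 2.63 times the members' median for Rpl22 and 0.579 times for Rpl22l1. Rpl36al made up 35.6% ± 0.853 and 36.1% ± 0.886 of its pair with Rpl36a, at 93.7 ± 4.22 and 85.6 ± 5.87 FPKM. Rpl6l, at 17.04 ± 0.942 and 17.1 ± 0.832 FPKM, was 10.3% ± 0.958 and 11.05% ± 0.654 of its pair with Rpl6 (148 ± 8.93 and 138 ± 6.24 FPKM; SD, n = 5 each). None of these pairs shifted by more than the spread between libraries.

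Rpl6l was the member that did not follow the family. It was at 18.3 FPKM in hypoxia replicate 4, the library where nearly all others were low, and at 15.8 to 17.7 in the other hypoxia libraries. Its correlation with the median of the other members was -0.18, and its log2 change was 0.0082 ± 0.045 (SE; limma-trend adjusted p = 0.945). Rpl6l had 464 to 629 reads per library, and 464 was the lowest among the 81 members of at least 10 FPKM. Counting noise thus takes a larger part of its spread, and the part of that noise in the low correlation was not tested. Rpl7l1, at 19.1 ± 0.920 and 18.1 ± 1.06 FPKM (SD, n = 5 each), followed loosely, with a correlation of 0.39, and was 5.98% ± 0.275 and 6.28% ± 0.380 of its pair with Rpl7.

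The remaining paralogs were scarce. Rps27l, which p53 induces, was at 4.54 ± 0.619 and 4.37 ± 0.561 FPKM (SD, n = 5 each), about 1.05% and 1.15% of its pair with Rps27. Its gene length was 3.28 times the members' median, and that of Rps27 was 0.412 times. Rps27l had 315 to 456 reads per library and Rps27 had 4066 to 5441. Rpl3l, the striated-muscle form of Rpl3, had 1 to 11 reads per library and was not tested. Rpl39l, known from male germ cells, had 0 to 11 reads and Rpl32l 1 to 10. At counts this low no difference between the groups was detectable. The parents Rpl3 (494 ± 27.7 and 474 ± 15.2 FPKM), Rpl39 (266 ± 19.5 and 248 ± 11.6 FPKM) and Rpl32 (370 ± 23.3 and 331 ± 19.5 FPKM; SD, n = 5 each) were not called either.

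**Figure D5:**
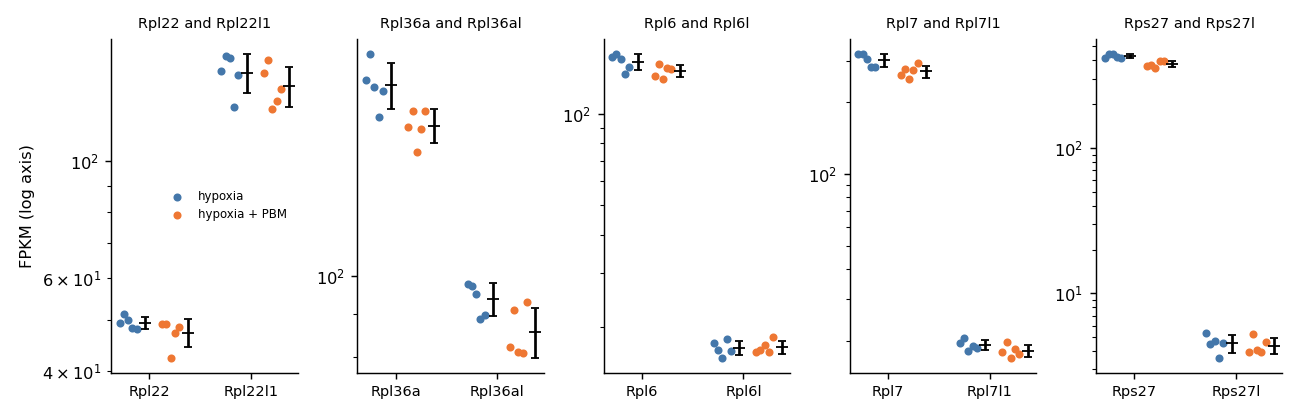
FPKM on a log axis for 5 parent genes and their paralogs in each library, with bars for the mean ± SD of 5 libraries; blue, hypoxia; orange, hypoxia + PBM. Rpl22l1 lies above Rpl22, whereas the other 4 paralogs lie below their parents, and the groups overlap in every panel gene but Rps27.

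Pyrimidine tracts at the gene start are shown because they are the feature that defines TOP mRNAs and that the choice by symbol did not use. RefSeq promoter windows (GRCm38.p6, 250 bases before to 50 after each annotated start) were found for 64 of the 85 members, a build other than the GRCm39 of the authors' alignment. A C at the start followed by at least 4 pyrimidines was present in 14 of the 64 (21.9%), against 2.83% of 11192 other tested genes and 3.01% of all genes in the RefSeq table. An annotated start that is a few bases off hides such a tract. Genes with several annotated starts had a window for each (76 for the 64 members). A gene was counted for a feature if any of its windows held it. A run of at least 8 pyrimidines within 30 bases of the start, a looser measure chosen after the windows were seen, was present in 36 of 64 members and in 25.7% of the other tested genes. In the lines that follow, for some of the 14 members, 15 bases before and 15 after a start are given from 5′ to 3′. The tract at the start is in capitals. For Rpl35a the start with the tract is given, and its other annotated starts had none.
Rps27 (chr3:90213634-90213663, minus strand): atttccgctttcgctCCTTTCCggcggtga
Rpl35a (chr16:33056467-33056496, plus strand): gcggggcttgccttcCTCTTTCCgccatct
Rplp2 (chr7:141447636-141447665, plus strand): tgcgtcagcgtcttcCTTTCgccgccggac
Rpl38 (chr11:114668565-114668594, plus strand): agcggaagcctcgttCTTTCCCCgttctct
Rps6 (chr4:86857353-86857382, minus strand): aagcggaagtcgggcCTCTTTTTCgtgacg
Rps10 (chr17:27635230-27635259, minus strand): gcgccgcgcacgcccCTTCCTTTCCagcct
Rpl15 (chr14:18270972-18271001, minus strand): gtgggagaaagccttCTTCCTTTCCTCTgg
Rpl35 (chr2:39005117-39005146, minus strand): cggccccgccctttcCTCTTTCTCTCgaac

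The median log2 change was -0.070 over the 14 members that had a tract at the start (from -0.18 to 0.15). It was -0.096 over 49 tested members without one and -0.11 over the 21 members with no window. The value of 0.15 belonged to Rpl32l, which had only 1 to 10 reads per library, and the next highest was Rpl35 at -0.0015. Rpl35, with a tract of 11 pyrimidines, had a change near 0, and Rps27, with one of 7, was the called gene. CCGGAAG, the core that ETS factors such as GABPA bind, was found on either strand in 26 of the 64 genes with a window (40.6%), against 17.9% of the other tested genes and 9.93% of all genes in the RefSeq table. AAGATGG on either strand was found in 10 of 64 (15.6%) and in 7.91% of the other tested genes, and 7.28% of all genes in the RefSeq table. TATAAA in the 50 bases before the start was found in 1 of 64 and in 1.91% of the other tested genes. CCGGAAG and AAGATGG share the letters AAG and can overlap, and a match describes the letters only.

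Genes that work beside the ribosomal proteins showed few calls. Of 8 ribosome-associated genes none was called. Rack1, the scaffold bound to the small subunit, was at 178 ± 8.55 and 161 ± 7.55 FPKM (SD, n = 5 each; limma-trend adjusted p = 0.0856). Naca, of the complex that binds nascent chains, had a log2 change of -0.11 ± 0.045 (SE; limma-trend adjusted p = 0.196). The median log2 change of the list was -0.066, and 7 of 8 were negative. Fau (0.88), a small-subunit fusion gene, followed the members' median between libraries, as did the elongation factor genes Eef1b2 (0.94) and Eef1a1 (0.91). These are correlations over 10 libraries, and the genes were chosen after their values were seen. Over 7 ribosome-associated genes of at least 10 FPKM they ran from -0.19 to 0.92 (median 0.85). Over 9 elongation factor genes they ran from -0.75 (Eif5a2) to 0.94 (median 0.68). The range was -0.92 to 0.88 over 34 initiation factor genes (median 0.55). It was -0.83 to 0.76 over 11 genes of mTORC1 signalling and TOP mRNA control (median -0.34). Over 26 ribosome biogenesis genes it was -0.36 to 0.89 (median 0.50), and over 5 RNA polymerase I genes -0.31 to 0.89 (median 0.50). Over 3 genes for factors that act at ribosomal protein promoters it was -0.89 to 0.098 (median -0.20). The lists were not matched for gene length, and its part in these correlations was not tested.

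Of 12 elongation factor genes, 1 was called higher, Eif5a2, which encodes a hypusinated factor that eases peptide bond formation. It held 11.7, 11.3, 11.2, 12.4 and 11.7 FPKM in hypoxia replicates 1 to 5 and 13.9, 12.7, 13.7, 14.3 and 13.0 in hypoxia + PBM. The groups did not overlap, and the log2 change was 0.20 ± 0.042 (SE; limma-trend adjusted p = 0.0249). It was not called without hypoxia replicates 1, 2, 3 or 5 or without hypoxia + PBM replicates 1, 3 or 4, each left out alone. Of 36 initiation factor genes 0 were called, with 28 negative changes and a median of -0.054. The smallest p in that list belonged to Eif4g3, a scaffold of the cap-binding complex (20.7 ± 1.12 and 23.4 ± 1.07 FPKM, SD, n = 5 each; limma-trend adjusted p = 0.0635), and to Eif3e (77.1 ± 4.20 and 68.7 ± 4.75 FPKM; limma-trend adjusted p = 0.0979).

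Of 30 genes of mTORC1 signalling and TOP mRNA control, 1 was called lower, Rhebl1, a small GTPase related to the mTORC1 activator RHEB. It held 3.97, 4.16, 3.19, 3.70 and 3.60 FPKM in hypoxia replicates 1 to 5 and 2.66, 2.57, 2.84, 2.99 and 2.88 in hypoxia + PBM. No library of one group reached the other, and the log2 change was -0.31 ± 0.060 (SE; limma-trend adjusted p = 0.0172). The list's median was -0.0053, with 18 of 30 negative.

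Of 54 ribosome biogenesis genes 0 were called, although 38 were negative and the median was -0.053. Gar1, of the particles that modify ribosomal RNA, was at 11.6 ± 0.784 and 10.1 ± 0.465 FPKM (SD, n = 5 each; limma-trend adjusted p = 0.0597), and Utp4 at 14.4 ± 1.13 and 12.7 ± 0.341 FPKM (limma-trend adjusted p = 0.0900). Of 15 genes of RNA polymerase I and ribosomal DNA transcription 0 were called, with a median of -0.0050 and the smallest limma-trend adjusted p at 0.177 for the subunit gene Polr1c. Of 12 genes for factors that act at ribosomal protein promoters 0 were called, with a median of 0.012. Myc was at 1.48 ± 0.244 and 1.06 ± 0.217 FPKM (SD, n = 5 each; limma-trend adjusted p = 0.0965), and Yy1 had a log2 change of -0.096 ± 0.042 (SE; limma-trend adjusted p = 0.230). Beside these counts, 1.70% of all tested genes were called lower and 1.15% higher.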

How the data were processed

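One table of 15914 genes was used. Per the file headers, the authors computed FPKM for each library without pooling replicates, and deposited group means as a signal (reads divided by DESeq2 size factors), a linear fold change, a log2 fold change, and a p-value and q-value of their own comparison. The submitters' processing notes name fastp 1.0, HISAT2, HTSeq and GRCm39. Settings, annotation release and use of strand: not given in the sources used here.

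Genes with at least 0.1 FPKM in at least 5 libraries were fitted as log2(FPKM + 1) with limma-trend (limma 3.58.1, R 4.3.3), group as the only term, and called at a two-sided Benjamini-Hochberg adjusted p under 0.05 over all 14406 genes. The pseudocount of 1 understates changes of low genes. Read numbers were solved for from FPKM together with the authors' group means: 100% of values were whole within 0.01 reads. They gave totals, shares, relative gene lengths and a limma-voom alternative. Within groups, every pair of libraries differed by more than counting noise (chi-square per gene 5.98 to 13.8). The fit was tested on simulated data in which genes varied independently and the changes were larger than those of the members. That test does not cover small changes in genes that move together. The members, gene lists and tests were chosen with earlier results of these data known. Named genes were the called members, the 8 with the smallest p and the 4 with the highest level in each subunit, paralogs with their parents, stalk genes and Rpsa, and the called or lowest-p genes of each list. Values of 3 single genes are not reported here; they stay in all sums, counts and fits, and not in the plots by gene.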

Additional observations from a re-analysis of the deposited data

Results flagged for a closer look

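In 9 of 170 groups of 5 libraries (85 genes in each of 2 groups) 1 library lay apart from the other 4 by Dixon's criterion, 5.29%, and chance alone gives about 1 in 20. In hypoxia, replicate 4 was the lowest library in each of the 5 cases, with Rpl17 at 189 FPKM, Rpl31 at 183, Rpl35a at 290.2, Rps2 at 282 and Rps27a at 145. In hypoxia + PBM, replicate 2 was the highest for Rpl12 (279 FPKM) and Rps14 (613 FPKM), and replicate 3 the lowest for Rpl22 (42.4 FPKM). The summed level of the members set no library apart in either group. Because the members move together, these cases are not independent of each other.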

How the results depend on the processing

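The count of members called lower, 1 with all libraries, was 2 with a minimum of 1 FPKM, 2 with limma-voom on recovered reads, 13 with the length trend removed, 0 with the striatal covariate, and 0 to 12 when 1 library was left out. No member was called higher in any of these fits. Over all genes, calls in either direction numbered 411 with all libraries, 471 with a minimum of 1 FPKM and 594 with limma-voom. They numbered 637 with the length trend removed, 0 with the striatal covariate and 200 to 538 when 1 library was left out. The median log2 change of the members, -0.096, lay between -0.12 and -0.075 when 1 library was left out and was -0.083 with upper-quartile scaling and 0.019 with the striatal covariate. The difference of the summed level lay between -8.68% and -5.33% when 1 library was left out. Replicate numbers did not pair the libraries: deviations of same-numbered libraries correlated between -0.075 and 0.24, and other pairs between -0.31 and 0.39. With the replicate number as a block, 0 members were called (Rps27, adjusted p = 0.0976), and the median correlation among members was 0.86. With the striatal covariate 32 of 84 members were negative, against 82. Among the named genes, the sign of the log2 change turned, with no call before or after, for Rpl13a (0.053), Rpl22 (0.041), Rpl22l1 (0.11), Rpl3 (0.048), Rpl31 (0.020), Rpl39 (0.054), Rpl41 (0.18), Rpl6 (0.023), Rpl6l (-0.062), Rps14 (0.053), Rps15 (0.020), Rps23 (0.019), Rps27l (0.20), Rps29 (0.025) and Rpsa (0.064). With the length trend removed 74 of 84 members were negative, and among the named genes the sign turned for Rpl39l (0.021) and Rpl41 (0.026). Leaving out 1 library gave -0.061 to 0.029 for Rpl39l, -0.063 to 0.020 for Rpl41, -0.11 to 0.0098 for Rps27l and -0.018 to 0.032 for Rpl6l. The cause of these turns was not tested. Depth limits Rpl3l, Rpl32l and Rpl39l most, with 0 to 11 reads per library. Counting noise also weighs more on Rps27l (315 to 456 reads) and Rpl6l (464 to 629 reads) than on most members.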
